A study of Homo sapiens with 6 samples.

Results

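Retinoic acid signalling was examined through 10 genes, namely the retinoic acid receptors RARA, RARB and RARG, their partner RXRA, the degrading enzymes CYP26A1 and CYP26B1, the binding proteins CRABP1 and CRABP2, the retinaldehyde reductase DHRS3 and the receptor corepressor NRIP1. The genes were chosen by name, with earlier results of these data known. They were matched to the identifiers of the expression tables, where all 10 were found among 60676 listed genes. RNA came from SK-N-BE, a human neuroblastoma line that takes on neuronal features under retinoic acid. Every culture, control included, had been kept for 1.5 days in a medium with 10 μM retinoic acid and 2.5% FBS. One group of 3 libraries received a scrambled siRNA (si-SCR) and the other group of 3 a pool of siRNAs against CyCoNP, the long noncoding RNA of the LINC02381 gene (si-CyCoNP). Cells without retinoic acid were not analysed here, so the values compare both siRNAs under the drug and do not measure the induction by the drug itself. The labels number the libraries without describing separate cultures, and p-values then measure the spread between these libraries, which may be partly technical.

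Retinoic acid is a derivative of vitamin A that enters the nucleus and binds RAR, which sits on DNA as a dimer with RXR. Without ligand the dimer recruits corepressors, and with ligand it recruits coactivators and raises the transcription of its target genes. CRABP1 and CRABP2 carry retinoic acid in the cytoplasm, the CYP26 enzymes oxidise it for removal, and DHRS3 turns its precursor retinaldehyde back to retinol. RARB, CYP26A1, CYP26B1, CRABP2, DHRS3 and NRIP1 are among the textbook targets of the receptors, so that several genes of the pathway are themselves under its control.

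The 6 libraries held between 3762009 and 4799407 counted fragments, and the totals of both groups overlapped (exact permutation test, two-sided, p = 0.9). At these totals 3 counts correspond to 0.625 to 0.797 CPM, used as the floor up to which a gene without any count may still be expressed. On the first principal component, which held 51.4% of the variance, library si-SCR 3 stood at -20.9, nearer to the si-CyCoNP libraries (29.2 to 32.2) than si-SCR 1 and si-SCR 2 (-34.8 and -35.5). LINC02381 had 274, 208 and 315 counts in si-SCR against 20, 30 and 12 in si-CyCoNP. Its level fell from 14.4 ± 1.31 to 1.10 ± 0.498 FPKM (SD, n = 3), a change of -3.78 ± 0.190 on the log2 scale (standard error, SE; edgeR quasi-likelihood test, adjusted p = 6.84e-14). The silenced transcript was thus low in all 3 libraries labelled as depleted.

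Of the 10 retinoid genes 6 rose upon CyCoNP depletion (RARB, RARG, CYP26A1, CYP26B1, CRABP2 and DHRS3), 1 fell (CRABP1) and 3 did not pass the test (RARA, RXRA and NRIP1), at an adjusted p under 0.05 by edgeR. All 10 were above the expression filter, a mean of at least 1 FPKM (fragments scaled to gene length and to the total of the library) in one of the groups, and each also averaged more than 1 FPKM in both groups. Among the 13966 genes tested 28.4% passed, 14.2% in the higher direction and 14.2% in the lower. A log2 fold change above 1 was reached by 5 of the risen genes, that is all but RARG, whereas 2.28% of the tested genes were called higher by that rule. The drop of CRABP1 was smaller than a log2 fold change of -1, the limit for the 2.98% of tested genes called lower. The FPKM of the 2 groups did not overlap for the same 7 genes, against 24.2% of the tested genes lying wholly higher and 16.1% wholly lower in si-CyCoNP. The median log2 fold change was 0.91 over the 10 genes and 0.0053 over all genes tested. Because the 10 genes were chosen with earlier results of these data known, the values of all genes give scale only. No excess over them is claimed. In bulk RNA a change in the number of cells that express a gene and a change in the RNA per cell cannot be told apart.

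**Figure D1:**
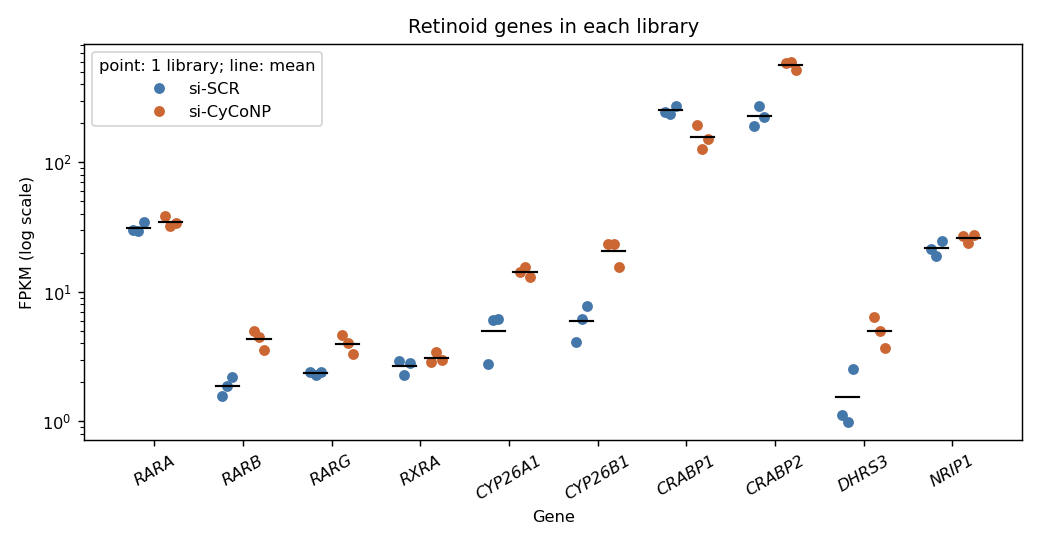
Level of each of the 10 retinoid genes in the 6 libraries, in FPKM on a log axis, with 1 point per library, si-SCR on the left and si-CyCoNP on the right of each gene, and a line at the group mean. The points of RARB, RARG, CYP26A1, CYP26B1, CRABP2 and DHRS3 lie higher in si-CyCoNP without overlap, those of CRABP1 lie lower, and those of RARA, RXRA and NRIP1 overlap.

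The levels of the 10 genes were far apart. In si-SCR CRABP1 was the most abundant at 252 ± 18.3 FPKM (SD, n = 3), and its libraries overlapped those of CRABP2 at 230 ± 39.9 FPKM. RARA and NRIP1 followed, without overlap of their libraries. Below them CYP26B1, CYP26A1 and RXRA formed a run in which each overlapped the next, RXRA also overlapped RARG, and RARB overlapped DHRS3, the lowest at 1.56 ± 0.871 FPKM. In si-CyCoNP CRABP2 stood first at 564 ± 44.4 FPKM, clear of CRABP1 at 158 ± 34.01 FPKM. At the lower end the order became DHRS3, RARB, RARG and RXRA, each overlapping the next, and RXRA went from the seventh to the last place.

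The receptors were considered first, as they read the signal. RARA (ENSG00000131759, chromosome 17 from 40309180 to 40357643, plus strand, GRCh38), the most abundant subtype here, had 29.99, 29.4 and 34.6 FPKM in the controls and 38.4, 32.4 and 33.9 FPKM after depletion. The groups overlapped, with si-SCR 3 above 2 of the si-CyCoNP libraries. Its log2 fold change was 0.09, with a 95% interval from -0.096 to 0.27 (edgeR, adjusted p = 0.504). A transcript on the opposite strand of RARA, 1 of several annotated there, averaged 27.2 counts, against 525 to 875 counts of RARA per library.

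RARB (ENSG00000077092, chromosome 3 from 24687887 to 25597932, plus strand) encodes the receptor that is itself a classical retinoic acid target. Its counts were low, 25, 26 and 39 in the controls and 88, 71 and 55 after depletion. In FPKM this was 1.57, 1.87 and 2.21 against 4.96, 4.52 and 3.59. All 3 depleted libraries lay above every control library, and the control nearest to them was si-SCR 3. RARB rose 2.20-fold, or 1.14 ± 0.221 on the log2 scale (SE; edgeR, adjusted p = 0.000246).

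RARG (ENSG00000172819, chromosome 12 from 53210567 to 53232980, minus strand) encodes the third subtype and lies 893039 bases from LINC02381 on the same chromosome. Its FPKM were 2.41, 2.28 and 2.41 in the controls and 4.63, 3.99 and 3.29 after depletion. The controls lay close together and the depleted libraries were spread above them. RARG rose 1.61-fold, or 0.68 ± 0.184 on the log2 scale (SE; edgeR, adjusted p = 0.00582). Without si-CyCoNP 1, its highest library, RARG no longer passed (log2 fold change 0.55, edgeR adjusted p = 0.0572).

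RXRA (ENSG00000186350, chromosome 9 from 134317098 to 134440585, plus strand) encodes the common dimerisation partner. It had 2.93, 2.29 and 2.82 FPKM in the controls and 2.86, 3.41 and 2.98 FPKM after depletion, and the groups overlapped. Its log2 fold change was 0.13 with a 95% interval from -0.15 to 0.40 (edgeR, adjusted p = 0.520). Among the other RXR genes, RXRB rose from 4.87 ± 0.892 to 7.21 ± 0.272 FPKM (SD, n = 3), by 0.51 on the log2 scale (edgeR, adjusted p = 0.0167), and RXRG had 0 counts in each of the 6 libraries, which allows at most the floor of 3 counts given above. A gene on the opposite strand of RXRB averaged 326 counts, against 67 to 130 counts of RXRB per library. Whether its fragments entered the counts of RXRB was not tested.

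The make-up of the receptor pool followed from these values. RARA took 88.3%, 87.6% and 88.2% of the summed FPKM of the 3 RAR genes in the si-SCR libraries and 80.0%, 79.2% and 83.1% in the si-CyCoNP libraries. RARB took 5.28% ± 0.556 in the controls and 10.1% ± 1.14 after depletion, and RARG 6.67% ± 0.486 and 9.16% ± 0.934 (SD, n = 3). For each subtype the libraries of one group lay apart from those of the other, and RARA remained the main subtype in every library. The exact permutation test (two-sided) gave p = 0.1 for each share, which is as low as 3 values against 3 can go, and 0.1 after Benjamini-Hochberg adjustment over the 3 subtypes and the CRABP2 share given further on. The summed level of the 3 genes was 35.6 ± 3.15 FPKM in the controls and 43.2 ± 4.14 FPKM after depletion (SD, n = 3).

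**Figure D2:**
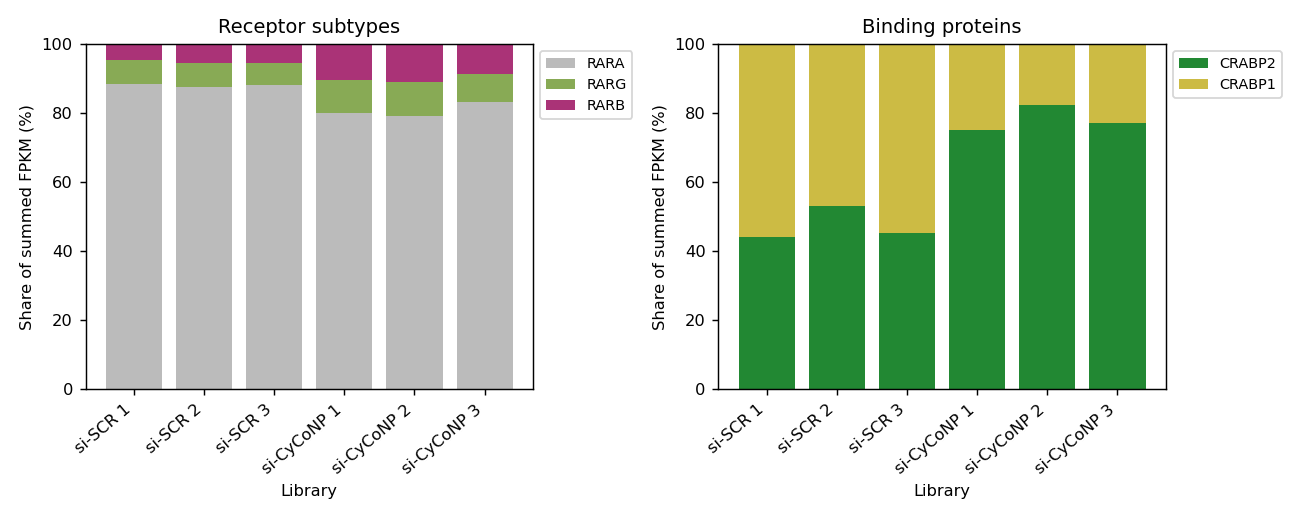
Stacked bars for each library of the share (%) that RARA, RARG and RARB take in their summed FPKM (left) and that CRABP2 and CRABP1 take in theirs (right). In the 3 si-CyCoNP libraries the RARA share lies between 79.2% and 83.1%, under the 3 si-SCR libraries at 87.6% to 88.3%, and CRABP2 takes 74.96% to 82.3% against 44.002% to 53.2%.

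Both tested enzymes that remove retinoic acid rose. CYP26B1 (ENSG00000003137, chromosome 2 from 72129238 to 72147862, minus strand) had 88, 117 and 185 counts in the controls and 560, 497 and 321 after depletion. Its FPKM were 4.09, 6.20 and 7.71 against 23.3, 23.3 and 15.4. Even si-CyCoNP 3, the lowest of the depleted libraries, lay well above si-SCR 3, the highest control. CYP26B1 rose 3.28-fold, the largest estimate of the 10 genes, or 1.71 ± 0.158 on the log2 scale (SE; edgeR, adjusted p = 3.90e-09), and stood at place 370 from the highest log2 fold change among the genes tested.

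CYP26A1 (ENSG00000095596, chromosome 10 from 93073475 to 93077885, plus strand), the other strongly inducible enzyme of this family, had 35, 68 and 88 counts in the controls and 203, 195 and 161 after depletion. The FPKM were 2.75, 6.10 and 6.21 against 14.3, 15.5 and 13.1. Library si-SCR 1 was set below the other controls, and the depleted libraries stayed close together above all of them. The rise was 2.72-fold, or 1.44 ± 0.185 on the log2 scale (SE; edgeR, adjusted p = 7.93e-07), and the log2 fold change was 1.16 without si-SCR 1. An annotated noncoding gene overlaps CYP26A1 on the same strand, so fragments of the shared part are less certain. The summed level of both enzymes went from 11.02 ± 3.71 to 34.96 ± 5.596 FPKM (SD, n = 3). CYP26C1, the third member of the family, had between 0 and 2 counts per library and was not tested.

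A known response element of RAR dimers consists of 2 copies of a short core in the same direction. Windows from 250 bases before to 50 bases after annotated gene starts (RefSeq, GRCh38.p14) were searched on both strands for 2 cores of the form NGNTCA, with A or G at the first place and G or T at the third, and 1, 2 or 5 bases between them. Of 21 windows of the 10 genes 2 held such a repeat, 1 at RARB and 1 at CYP26A1, both with 5 bases between the cores. They are shown because RARB and CYP26A1 are genes that rose, with the cores in capitals and the neighbouring bases in lower case, as read on the strand of the gene.
RARB, chr3:25428204-25428232, plus strand: gggtagGGTTCAccgaaAGTTCActcgca
CYP26A1, chr10:93073797-93073825, plus strand: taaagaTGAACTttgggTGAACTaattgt
In RARB the repeat lies from position -53 to -37 relative to the start of that window's transcript. In CYP26A1 it lies from -90 to -74 and runs on the opposite strand, where it reads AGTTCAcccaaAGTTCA. By the GENCODE annotation 3 of 23 RARB transcripts have an exon over the repeat, and 1 of 6 CYP26A1 transcripts does, so that for these transcripts it lies within the transcribed part. Of all 35116 windows 0.0883% held a repeat with 5 bases between, 0.131% with 1 base and 0.0399% with 2 bases. The windows of CYP26B1, CRABP2, DHRS3 and RARG, which also rose, held no match to these letters, nor did those of CRABP1, RARA, RXRA and NRIP1. A match describes the letters and does not show binding.

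The binding proteins moved in opposite directions. CRABP2 (ENSG00000143320, chromosome 1 from 156699606 to 156705816, minus strand), which delivers retinoic acid to the receptors, had 192, 271 and 226 FPKM in the controls and 583, 596 and 514 FPKM after depletion. The lowest depleted library lay far above the highest control. CRABP2 rose 2.35-fold, or 1.23 ± 0.0967 on the log2 scale (SE; edgeR, adjusted p = 2.05e-10), the smallest adjusted p of the 10 genes, and had 891 to 3030 counts per library.

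CRABP1 (ENSG00000166426, chromosome 15 from 78340353 to 78348225, plus strand), the related protein that is linked to retinoic acid turnover, had 244, 238 and 273 FPKM in the controls and 195, 128 and 151 FPKM after depletion. Every depleted library lay below every control, with si-CyCoNP 1 the nearest. CRABP1 fell to 60.1% of its control level, a change of -0.73 ± 0.107 on the log2 scale (SE; edgeR, adjusted p = 6.08e-06). Consequently CRABP2 took 44.002%, 53.2% and 45.3% of the summed FPKM of both genes in the controls and 74.96%, 82.3% and 77.2% after depletion, a difference of 30.7 percentage points between the means (exact permutation test, two-sided, p = 0.1, adjusted p = 0.1). The sum of both genes was 481 ± 39.8 FPKM in the controls and 722 ± 56.7 FPKM after depletion (SD, n = 3).

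DHRS3 (ENSG00000162496, chromosome 1 from 12567910 to 12618210, minus strand) limits the making of retinoic acid by reducing retinaldehyde. It was the least abundant of the 10 genes in si-SCR, with 17, 13 and 43 counts, against 107, 74 and 54 counts in si-CyCoNP. The FPKM were 1.13, 0.983 and 2.56 against 6.34, 4.95 and 3.71. Library si-SCR 3 stood well above the other controls and si-CyCoNP 3 was the lowest depleted library, yet the groups did not overlap. DHRS3 rose 2.998-fold, or 1.58 ± 0.275 on the log2 scale (SE; edgeR, adjusted p = 6.27e-05), and the log2 fold change was 2.15 without si-SCR 3.

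NRIP1 (ENSG00000180530, chromosome 21 from 14961235 to 15065936, minus strand), which binds liganded receptors and represses them, had 21.5, 18.9 and 24.7 FPKM in the controls and 26.9, 23.8 and 27.3 FPKM after depletion. Only si-SCR 3 reached into the range of the depleted libraries. The log2 fold change was 0.19 with a 95% interval from 0.0046 to 0.38 before adjustment, and the gene did not pass the test (edgeR, adjusted p = 0.123). NRIP1 passed when si-SCR 3 was left out (log2 fold change 0.27, edgeR adjusted p = 0.00974) and when counts were scaled by library totals alone (log2 fold change 0.26, edgeR adjusted p = 0.0383).

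The libraries at the edges recurred among the risen genes. In si-CyCoNP the lowest FPKM was found in library 3 for all 6 of them, and that library also had the fewest LINC02381 counts. In si-SCR the highest FPKM was found in library 3 for 4 of the 6 (RARB, CYP26A1, CYP26B1 and DHRS3) and for 7 of all 10 genes. The genes come from the same libraries and are not independent, and the same count over all genes tested was not made. A relation to the LINC02381 counts was not tested. Without si-SCR 3 the counts were 7 higher and 1 lower, NRIP1 being the gene added.

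The wider vitamin A pathway was described with a list of 26 further genes, of which 10 could be tested. The list covers receptors, uptake, binding, synthesis, storage and breakdown. Among those 2 rose, 2 fell and 6 did not pass, with a median log2 fold change of -0.0072. Of all genes tested 14.2% rose and 14.2% fell by the same rule. STRA6, the membrane receptor for retinol uptake, fell from 103 ± 17.6 to 46.4 ± 5.42 FPKM (SD, n = 3), a change of -1.22 ± 0.105 on the log2 scale (SE; edgeR, adjusted p = 1.03e-09). RETSAT, which saturates retinol, fell from 6.03 ± 0.773 to 3.14 ± 0.300 FPKM, a change of -1.0005 on the log2 scale (edgeR, adjusted p = 6.52e-05). FABP5, a fatty acid binding protein that can also carry retinoic acid, rose from 27.3 ± 3.82 to 37.4 ± 3.05 FPKM, a change of 0.38 on the log2 scale (edgeR, adjusted p = 0.0128), and RXRB completed the list as given above. Of the 16 genes that were not tested 6 had 0 counts in every library.

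**Figure D3:**
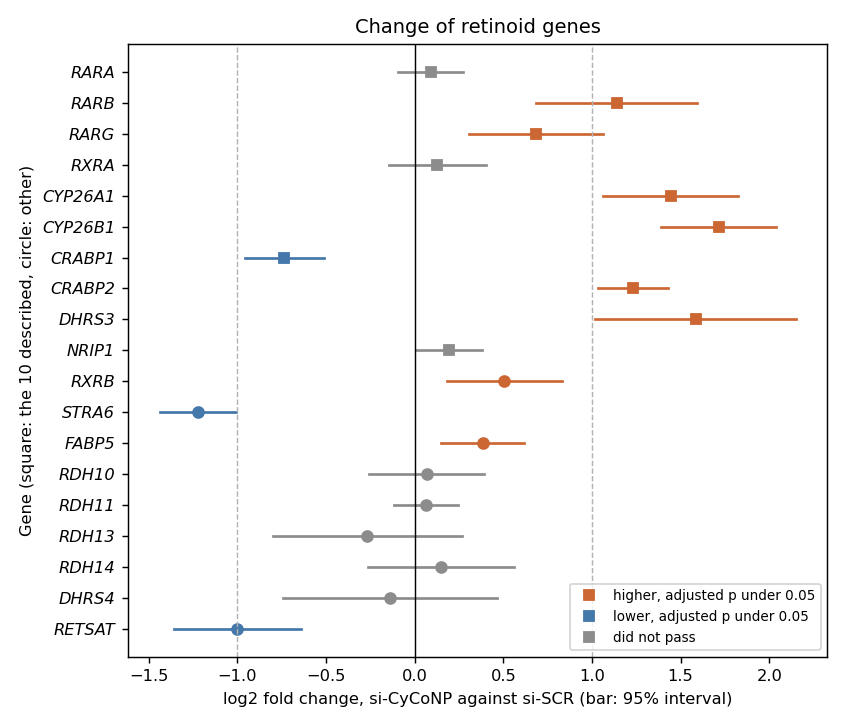
Log2 fold change of the 10 retinoid genes (squares) and of 9 tested genes of the wider vitamin A list (circles), si-CyCoNP against si-SCR, with the 95% interval as a bar and dashed lines at -1 and 1. CYP26B1 at 1.71 is the highest and STRA6 at -1.22 the lowest, and the interval of RARA reaches only from -0.096 to 0.27.

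Coregulators pass the signal from the receptors to chromatin. Of 17 listed genes 16 were tested, 7 rose, 1 fell and 8 did not pass, with a median log2 fold change of 0.17. The shares over all genes tested were 14.2% higher and 14.2% lower. Among corepressor genes TBL1X rose by 0.72 and LCOR by 0.53 on the log2 scale (edgeR, adjusted p = 0.000166 and 3.44e-05). The coactivator NCOA3 rose by 0.42 and the RAR cofactor ZNF423 by 0.77 on that scale (edgeR, adjusted p = 0.00120 and 0.000259). KAT2B, a histone acetyltransferase, was the gene that fell, from 2.03 ± 0.400 to 0.391 ± 0.110 FPKM (SD, n = 3), a change of -2.41 ± 0.323 on the log2 scale (SE; edgeR, adjusted p = 1.65e-06), and it passed the expression filter only by its level in si-SCR. All of the named changes except that of KAT2B were smaller than a log2 fold change of 1.

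A further list held 22 genes known to respond to retinoic acid in other settings, and 9 were tested. Of these 4 rose, 1 fell and 4 did not pass, beside 14.2% higher and 14.2% lower among all genes tested. The median log2 fold change was 0.36, and 7 of the 22 genes had 0 counts in every library. HIC1, a transcriptional repressor, rose from 1.93 ± 1.09 to 9.58 ± 0.697 FPKM (SD, n = 3), a change of 2.22 on the log2 scale (edgeR, adjusted p = 1.16e-09). The transglutaminase TGM2 rose from 1.89 ± 0.242 to 6.09 ± 0.0978 FPKM, a change of 1.62 on the log2 scale (edgeR, adjusted p = 1.18e-09). A gene on the opposite strand averaged 180 counts at HIC1 and 226 at TGM2. In si-SCR HIC1 itself had 36 to 122 counts per library and TGM2 55 to 78. Whether fragments of the opposite strand entered their counts was not tested. The homeobox gene MEIS2 rose by 0.59 on the log2 scale (edgeR, adjusted p = 7.49e-06). RET, the receptor of GDNF family ligands, went the other way, from 310 ± 39.0 to 216 ± 14.6 FPKM, a change of -0.59 on the log2 scale (edgeR, adjusted p = 7.23e-06). Not every responsive gene is in this list. Genes named in the lists above, among them STRA6, which fell, were not counted in it.

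Markers of cell identity were read in the same libraries. Of 10 adrenergic neuroblastoma markers 7 fell, 1 rose and 2 did not pass, beside 14.2% lower and 14.2% higher among all genes tested. The median log2 fold change of these markers was -0.39. Their summed level ranged from 2819 to 3307 FPKM in the controls and from 2284 to 2484 FPKM in si-CyCoNP, and none was at 0. CHGA fell by 1.24, PHOX2A by 1.13, GATA2 by 1.06, HAND2 by 0.61 and STMN2 by 0.38 on the log2 scale, and MYCN rose by 0.84 (edgeR, adjusted p between 9.24e-11 and 0.000859). Among 10 mesenchymal or Schwann-like markers 7 were tested, FN1 and COL1A1 rose by 2.88 and 1.68, and SNAI2, S100A6 and VIM fell by 1.27, 0.69 and 0.43 on the log2 scale (edgeR, adjusted p between 1.28e-13 and 0.000413). FN1 (0.697 ± 0.108 FPKM in si-SCR) and COL1A1 (0.450 ± 0.108 FPKM, SD, n = 3) passed the expression filter only by their level in si-CyCoNP, where they are high, so that their rise and the count of this list give no support to a shift. The summed level of this list was 166 to 184 FPKM in the controls and 120 to 132 FPKM in si-CyCoNP, and PRRX1 and COL1A2 had 0 counts in every library. The 6 markers of other cell types (blood, endothelial, epithelial, glial and liver) summed to at most 0.893 FPKM in any library, and 2 of them, PECAM1 and ALB, had 0 counts throughout. The part of these shifts in the changes of the retinoid genes was not tested.

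**Figure D4:**
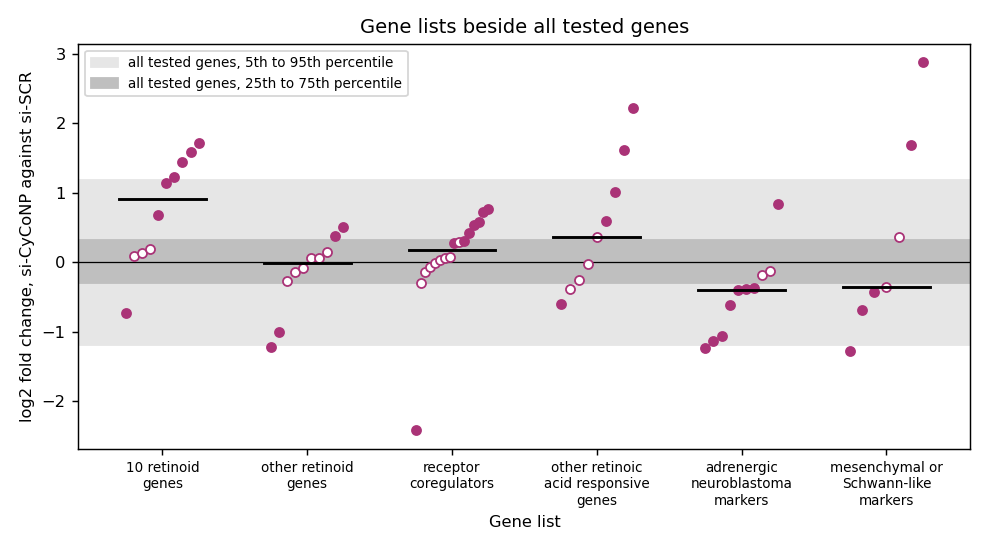
Log2 fold change of each tested gene in 6 lists (filled points passed an adjusted p under 0.05, open points did not, black lines are list medians), beside bands for the 5th to 95th (-1.18 to 1.18) and the 25th to 75th (-0.30 to 0.32) percentiles of all tested genes. The median of the 10 retinoid genes is 0.91, that of the wider vitamin A list -0.0072 and that of the adrenergic markers -0.39.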

How the data were processed

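Libraries were grouped and numbered by sample title. Per the study's methods, stranded total RNA libraries without ribosomal RNA were sequenced in pairs, trimmed (Trimmomatic 0.39, Cutadapt 3.2), cleared of ribosomal reads (Bowtie2 2.4.2) and aligned with STAR 2.7.7a to GRCh38. The authors counted uniquely mapping fragments per Ensembl 99 gene. The deposited FPKM follow from the deposited counts, with no correction for composition. A supplementary legend also mentions deduplication without naming a tool, and whether the deposited counts are deduplicated could not be settled. How the authors set gene length is not given in the sources used here. Floors cover counting error only.

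Of 60676 identifiers 60357 matched a symbol (GENCODE 44, GRCh38). Genes whose FPKM averaged 1 or more in one of the groups were compared with edgeR 4.0.16 (R 4.3.3; TMM scaling, quasi-likelihood test, Benjamini-Hochberg over 13966 genes), tested first on simulated data. "Passed" means an adjusted p under 0.05, "called" also a log2 fold change beyond 1. Intervals are at 95% from the same fit. The study's methods name DESeq2, run here (1.42.0) as an alternative, as were limma 3.58.1 and others. The retinoid genes and all lists were chosen with earlier results of these data known, and support nothing beyond their own values. In each further list at most 6 passing genes, those of smallest p, are named, plus RXRB, RXRG and CYP26C1. PRRX1, COL1A2, PECAM1 and ALB were named after their values were seen. The values of some list members are not reported here, and these enter only the list summaries.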

Additional observations from a re-analysis of the deposited data

How the results depend on the processing

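CRABP1 was the 1 retinoid gene that fell in each of the 16 alternatives. DESeq2, the edgeR likelihood ratio test, 2 other scalings, 2 other filters and limma on FPKM each gave 6 higher. RARG was lost without si-CyCoNP 1, and NRIP1 was added with library totals, the replicate block and without si-SCR 3. With limma on log2(FPKM + 1) 4 instead of 5 were called higher, RARB being at 0.89 by construction of the pseudocount. Over leave-outs of 1 library LINC02381 ranged from -4.16 to -3.55. Among all genes limma lowered the number passing in the lower direction from 1990 to 1118 with log2(FPKM + 1) and to 1113 with log2(FPKM + 0.1), and with log2(FPKM + 1) 207 were called higher and 180 lower instead of 319 and 416. The cause was not tested. Library totals moved the split of passing genes to 2465 higher and 1574 lower. Shares of summed counts instead of FPKM gave differences of -6.61, 3.82, 2.79 and 29.6 percentage points for RARA, RARB, RARG and CRABP2.

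The replicate numbers were not taken as pairs. Deviations of same-numbered libraries correlated at 0.0907, 0.0727 and 0.108, each the highest for its library, a hint from the data and not from the design. With the replicate number as a block 7 retinoid genes were higher and 1 lower (NRIP1 log2 fold change 0.20, edgeR adjusted p = 0.0270), and 2403 genes were higher and 2368 lower in all. The genes of fewest counts, RARB and DHRS3, had the widest standard errors among the retinoid genes, and 3 libraries a group set the precision.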

Other observations

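Among genes of retinoic acid synthesis, ALDH1A3 had 1, 4 and 8 counts in the controls and 13, 14 and 14 after depletion, and ALDH1A1 had 0 in every library. BCO2, which cleaves carotenoids, had 9, 9 and 9 counts in the controls and 20, 16 and 14 after depletion. Other untested genes, from the list of responsive genes, had a lower mean level after depletion. RAI14 had 5, 7 and 12 counts in the controls and 3, 1 and 3 after depletion. RARRES1 had 8, 7 and 1 against 2, 0 and 0, so that its groups overlapped, and a gene on its opposite strand averaged 158 counts. These genes lay under the expression filter, were not tested, and were singled out after their values had been seen.

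Apart from RARB and CYP26A1, 27 genes had a window with the 5-base-spaced repeat described above, and 6 of them were tested. Of these 2 rose (ATXN1L, log2 fold change 0.47, edgeR adjusted p = 0.000242, and BATF2, which passed the filter only by its level in si-CyCoNP), 1 fell (CFLAR, -0.30, edgeR adjusted p = 0.0480) and the others (HROB, PANK2 and PHF8) did not pass. The median log2 fold change of the 6 was 0.15. With 1 base between the cores 20 genes were tested, of which 5 rose and 7 fell, with a median of 0.090. With 2 bases both tested genes fell. For each spacing these counts stand beside 14.2% higher and 14.2% lower among all genes tested. No test was made over these genes, which were singled out after the search.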
